A study of Mus musculus with 144 samples.

Results

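The cytosolic ribosomal protein genes encode the protein part of the ribosome that translates nuclear-encoded mRNA. Members were the protein-coding mouse genes named Rpl or Rps with a number (and the suffixes a, x, l, al or l1), together with Rplp0, Rplp1, Rplp2 and Rpsa. This rule used symbols only and no measured value. It gave 83 genes of the 55359 in the count files, 52 for the large (60S) and 31 for the small (40S) subunit. The symbols Rps4l, Rps12l1, Rpl6l and Rpl32l also matched but are annotated as pseudogenes and were left out.

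Each ribosomal protein is made in about equal number with its partners, and cells match the supply by common control of transcription and, above all, of translation. The mRNAs of vertebrate ribosomal proteins start with a cytosine followed by a run of pyrimidines, the 5' terminal oligopyrimidine (TOP) motif, through which the mTORC1 kinase and the RNA-binding protein Larp1 set how much of them is translated. Hepatocytes export large amounts of plasma protein, and their ribosomal protein mRNAs are among the most abundant messages that do not encode a secreted protein.

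The libraries were bulk RNA-Seq of primary hepatocytes from male mice, given in the labels as 28 days old, plated on collagen in William's E medium. Cells received DMSO vehicle or 10 nM TCDD (2,3,7,8-tetrachlorodibenzo-p-dioxin, an agonist of the aryl hydrocarbon receptor) and were harvested at 9 times from 2 to 120 h (4, 8, 12, 24, 48, 72 and 96 h between them). The strain labels were C57BL/6NCrl with genotype wild-type (WT below) and Pkm-delta-DRE with genotype DRE-null (PkmΔDRE below), with 4 libraries in each of 36 groups. PkmΔDRE mice carry a germline CRISPR deletion of 1 intronic dioxin response element of Pkm in all cells and were backcrossed to C57BL/6N. All groups shared the collagenase isolation and a medium with dexamethasone and, after attachment, an insulin premix. The labels gave neither a replicate number nor an isolation, so a p-value measured the spread between 4 libraries, which may be partly technical, and libraries are numbered in accession order.

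Pkm itself ran against the genotype labels. In libraries labelled PkmΔDRE, Pkm stood at 129.7 ± 27.2 CPM (mean ± SD, n = 4) with TCDD and 54.9 ± 19.2 with vehicle at 8 h, and at 428.5 ± 101.002 against 161 ± 96.6 at 24 h. In libraries labelled WT it stood at 45.6 ± 14.5 with TCDD against 62.4 ± 16.5 with vehicle at 8 h, and at 82.97 ± 46.003 against 87.6 ± 72.9 at 24 h. Groups are therefore called by their label throughout, and whether labels were exchanged was not tested. Among TCDD libraries from 8 h on, 1 labelled WT at 72 h had Cyp1a1, the standard AHR target, at only 29.2 CPM, and the vehicle libraries labelled WT with the highest Cyp1a1 held 3285 CPM (library 21, 48 h) and 1717 CPM (library 31, 96 h). Gene counts per library ranged from 13588848 to 30719161. All 12 hepatocyte markers were detected, with summed levels from 4040 to 19167 CPM at 120 h against 139919 to 188357 at 2 h in WT vehicle libraries.

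A pair of vehicle libraries labelled PkmΔDRE went against their time labels in cell markers. Library 80, labelled 4 h, had a summed hepatocyte level of 12864 CPM, against 133707 to 153638 in the other 3, with blood markers at 1.03 CPM (143.1 to 251) and cholangiocyte markers at 936 CPM (29.8 to 46.5). The fourth library labelled 96 h had the reverse, with hepatocyte markers at 122627 CPM (15739 to 18358 in the other 3), blood markers at 253 CPM (0.395 to 2.61) and cholangiocyte markers at 35.8 CPM (847 to 899). Where the blood sum was high it was nearly all Alas2. The globin genes listed reached at most 2.16 CPM in any library, against 346 CPM for Alas2. The 2 libraries were kept under their labels, and the results at 4 and 96 h in this label are also given without them.

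A pyrimidine run stood at the annotated start in a minority of the members' promoters. RefSeq promoters of build GRCm38.p6 were found for 63 of the 83 members (75 promoters). A C followed by at least 4 pyrimidines, read on the gene's strand from 5 bases before to 10 bases after the start, was present in 31 of them (41.3%), against 18.3% of all 32851 promoters. The core of the dioxin response element, GCGTG on either strand, was present in 57.3% of the members' promoters (250 bases before to 50 after the start) and in 32.4% of all. Such a match is a description of letters and not of binding, and annotated starts can lie a few bases from the true one. The following 30 bases are centred on the start, 5' to 3' on the gene's strand, and were chosen from promoters that hold the run, for members that the results return to. Capitals mark the run within the searched bases only, and pyrimidines may go on beyond them.
Rps6, chr4:86857353-86857382, minus strand: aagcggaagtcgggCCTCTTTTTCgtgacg
Rplp2, chr7:141447636-141447665, plus strand: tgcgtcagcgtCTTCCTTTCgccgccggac
Rpl38, chr11:114668565-114668594, plus strand: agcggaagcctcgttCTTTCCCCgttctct
Rpl35, chr2:39005117-39005146, minus strand: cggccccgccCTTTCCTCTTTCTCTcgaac
Rpl7a, chr2:26910792-26910821, plus strand: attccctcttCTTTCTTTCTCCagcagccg
Rps27, chr3:90213634-90213663, minus strand: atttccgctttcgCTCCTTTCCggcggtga
Rps27l, chr9:66946071-66946100, plus strand: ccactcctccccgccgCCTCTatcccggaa
Rps10, chr17:27635230-27635259, minus strand: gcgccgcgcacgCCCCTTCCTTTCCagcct
Rpl22l1, chr3:28805493-28805522, plus strand: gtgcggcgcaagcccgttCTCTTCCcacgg

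The members were abundant and unequal. Per kilobase of merged exon, CPM (not TMM-scaled) over the 72 vehicle libraries averaged 1308 ± 540 (SD) for Rplp1, 822 ± 333 for Rplp0 and 780 ± 301 for Rps2, the 3 highest. Rplp1 and Rplp0 belong to the acidic stalk that recruits elongation factors, and Rps2 lines the entry of the mRNA channel. The median over members was 154 per kilobase, 56 members stood at 100 or more, and the 10 most abundant members took 31.03% of all member counts. The 3 lowest were the paralogues Rpl3l (0.0787), Rpl39l (0.0204) and Rpl10l (0 counts in every library). These levels depend on annotation, since merged exons ran from 383 bases in Rpl36 to 6270 in Rps15a. At 182 and 219 CPM, Rpl36 and Rps15a stood at 476 and 34.9 per kilobase.

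A read can be lost where genes overlap. In 12 members at least 20% of the exon bases lie in another annotated gene, among them Rpl35 (66.2%), Rpl23a (62.3%), Rpl24 (46.99%), Rpl13a (35.4%) and Rps10 (28.7%). Pairs that touched several genes, from 3.35% to 7.83% of a library, were not counted, so the levels of these members are uncertain downward. Counts on 300 annotated pseudogenes came to 0.182% to 0.528% of the member counts. After a filter on low counts 78 members were tested in all 25 comparisons. Rpl36al was tested in 10, and Rpl24, Rpl3l, Rpl39l and Rpl10l in none.

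Paralogue pairs kept a steep order, with 1 exception. On the same scale of vehicle counts per kilobase, Rpl22 stood at 48.1 and Rpl22l1 at 1.498, Rpl7 at 197 and Rpl7l1 at 40.3, Rpl3 at 178 and Rpl3l at 0.0787, Rpl10 at 396 and Rpl10l at 0, Rpl36a at 76.0045 and Rpl36al at 0.381, and Rpl39 at 73.7 and Rpl39l at 0.0204. Rpl3l is known from striated muscle and Rpl10l and Rpl39l from testis. Rps27 and Rps27l, the latter a p53 target, stood at 162 and 218, and at 169 and 178 CPM before division by exon length. Of Rps4x (362) no second coding copy was in the rule, and its pseudogene Rps4l had a median of 750 counts per library.

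Members moved together over the 36 groups. The Pearson correlation of a member's group means (log2 of CPM + 0.5) with the median of the members had a median of 0.948 over the 78 members tested throughout, with 67 above 0.8 and 58 above 0.9, and the median was the same to 3 digits without the 2 libraries that went against their time labels. Over all genes tested throughout, the median was -0.00272, and 4.31% of the genes outside the set exceeded 0.8. These 36 points share libraries, depth and scaling, so this is a description. Rps10 (0.163) and Rpl22l1 (0.221), both with few counts, and Rpl23a (0.672) followed the others least. Outside the set the most similar genes were Eif3i (0.964), Eif5a, Kars, Eef1b2, Rack1, Mdh2, Timm50 and Eef1d (0.958). Of these Eif3i, Eif5a, Eef1b2 and Eef1d are translation factors, Kars charges lysyl-tRNA and Rack1 is itself a protein of the 40S subunit.

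**Figure D1:**
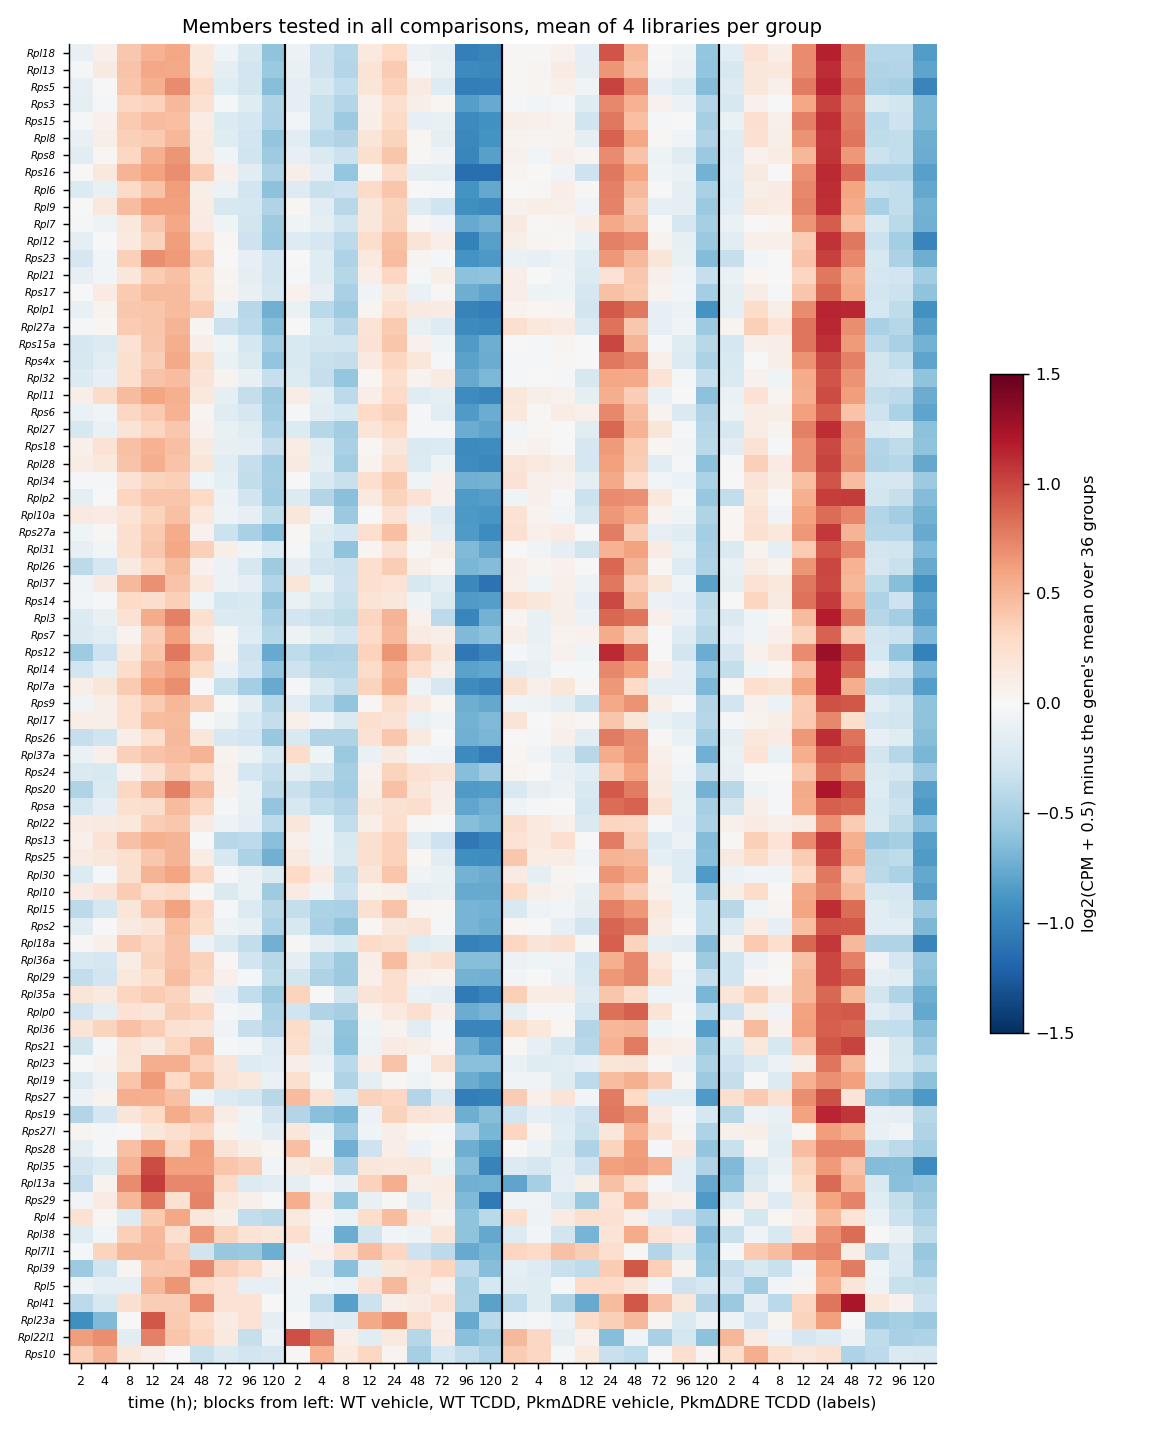
Each row is a member tested in all comparisons (1 of the 78 is not shown) and each column 1 of the 36 groups, and colour gives log2(CPM + 0.5) minus the gene's mean over groups. Most rows share 1 pattern, high around 24 h and low at 120 h (and at 96 h in WT TCDD), and the rows of Rps10 and Rpl22l1 (correlations of 0.163 and 0.221 with the members' median) do not.

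The question of culture time came first, because every TCDD comparison sits on it. In vehicle libraries labelled WT the members took 1.63%, 1.65%, 1.41% and 1.62% of all gene counts at 2 h. At 24 h they took 3.34%, 3.62%, 3.54% and 4.83%, all above the 2 h libraries. At 120 h the share was 2.54 ± 0.24%, between the other two. In vehicle libraries labelled PkmΔDRE the share was 1.68 ± 0.07% at 2 h. It was 5.16%, 3.26%, 3.19% and 5.72% at 24 h and 2.50 ± 0.46% at 120 h.

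The 24 h libraries labelled PkmΔDRE split into a high and a low pair in both treatments. With TCDD the shares were 3.81%, 3.86%, 6.11% and 6.07%. The TCDD pair with the high shares also had the fewest read pairs outside genes (3.07% and 2.88% of uniquely mapped pairs, against 4.99% and 4.59%), and in vehicle the high pair had 4.92% and 4.25% against 7.40% and 13.9%. The part of this in the split was not tested. In bulk libraries a change in the number of cells of a type and a change in RNA per cell cannot be told apart.

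**Figure D2:**
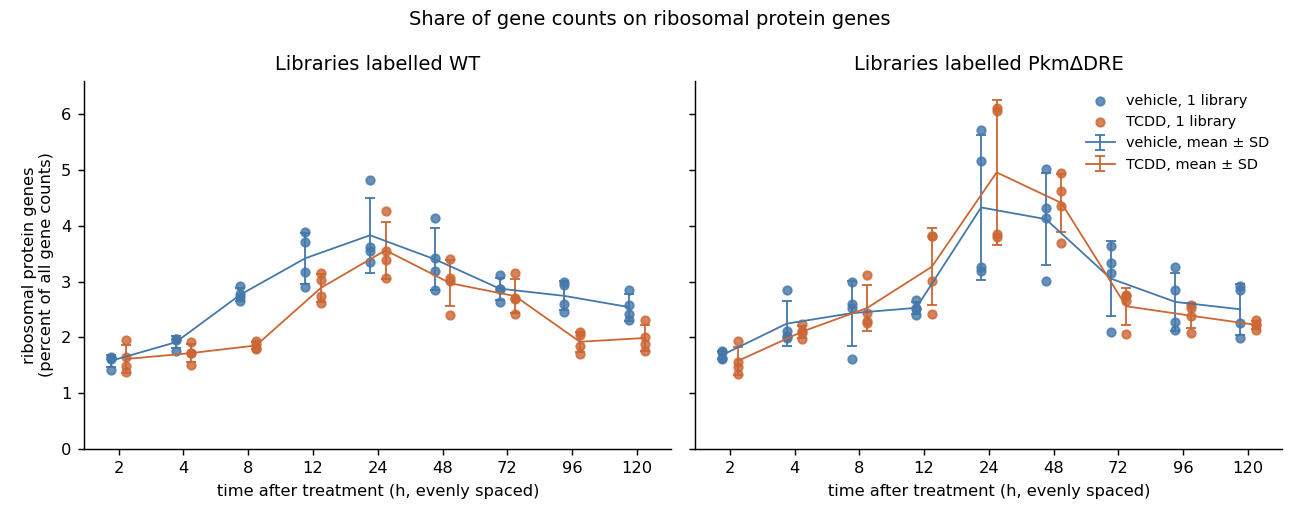
Percent of all gene counts on the 83 members (y axis) by time after treatment (x axis, evenly spaced) in each library (points), with mean ± SD of 4 libraries (lines), for both labels. The share rises from 1.58% at 2 h to 3.83% at 24 h in WT vehicle libraries, and the TCDD libraries lie wholly below vehicle at 8, 96 and 120 h in the WT label only.

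Relative to most other genes most members fell by 120 h, and fewer were called at 24 h. The fold changes used edgeR with TMM scaling, which sets the bulk of genes to no change, and Benjamini-Hochberg adjustment over all genes tested. From 2 to 24 h, 26 of 79 members tested (32.9%) rose in the WT label and none fell, while 25.7% of all genes tested rose. In 59 of the 79 every 24 h library was above every 2 h library, as it was for 30.3% of all genes. The members' median log2 fold change was 0.38 and that of all genes 0.06. In the PkmΔDRE label 7 of 78 rose, fewer in share than the 17.3% of all genes, with medians of 0.58 and 0.36, and in 9 of 78 the groups did not overlap in that direction (14.6% of all genes). The 7 were Rpl13a, Rps20, Rps12, Rps19, Rpl15, Rps15a and Rpl14. Leaving out 1 library gave 19 to 41 calls in the WT label (41 without library 19) and 0 to 9 in the PkmΔDRE label (0 without any 1 of libraries 73, 74 and 76, 1 without library 75 or 92, and 3 without library 89).

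Rps12, a small-subunit protein known from its role in cell competition, stood at 251, 308, 252 and 304 CPM at 2 h and at 610, 695, 576 and 909 CPM at 24 h in the WT label. Every 24 h library was above every 2 h library, and the log2 fold change was 1.09 (SE 0.18, adjusted p = 0.000311). In the PkmΔDRE label Rps12 went from 417, 372, 425 and 381 CPM to 1200, 494, 508 and 1302 (1.13, SE 0.33, adjusted p = 0.0246), and the 24 h values again fell into 2 pairs.

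Rps20, of the 40S head, stood at 228, 259, 168 and 229 CPM and then at 406, 501, 459 and 677 CPM in the WT label (0.97, SE 0.20, adjusted p = 0.00155). Rpl23a, whose protein sits at the tunnel exit, was low in counts but rose from 3.34, 5.39, 4.72 and 6.03 CPM to 9.67, 9.94, 9.52 and 22.2 CPM (1.16, SE 0.36, adjusted p = 0.0175). Both had groups that did not overlap. In the PkmΔDRE label Rpl13a rose the most, from 5.82, 6.59, 7.63 and 4.10 CPM to 14.2, 14.3, 12.1 and 18.7 CPM (1.33, SE 0.38, adjusted p = 0.0214), and much of its exon sequence is shared with other genes.

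From 2 to 120 h, 53 of 79 members fell in the WT label (29.9% of all genes did) and 67 of 78 in the PkmΔDRE label (28.6% of all genes). The members' medians were -0.54 and -0.78, and the medians of all genes 0.16 in both. Both comparisons of a label share the 2 h libraries. Rps25, needed for initiation at some internal ribosome entry sites, stood at 312, 342, 293 and 343 CPM at 2 h and at 161, 199, 195 and 163 CPM at 120 h in the WT label (-1.05, SE 0.14, adjusted p = 8.3e-05). Rpl7a followed closely (-1.04, SE 0.17, adjusted p = 0.000281). Their 2 and 120 h libraries did not overlap.

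In the PkmΔDRE label Rps27 fell from 221, 183, 228 and 197 CPM to 114.2, 81.99, 78.1 and 77.95 CPM (-1.43, SE 0.20, adjusted p = 8.6e-05), and Rpl36 from 211, 198, 233 and 197 CPM to 135.6, 73.9, 76.2 and 104.5 CPM (-1.31, SE 0.22, adjusted p = 0.000387). Rpl22l1 had the largest fall there, from 3.34, 3.88, 4.59 and 4.27 CPM to 0.629, 1.97, 2.04 and 1.80 CPM (-1.497, SE 0.44, adjusted p = 0.0112), at very few counts. It also fell in the WT label (-1.02, SE 0.32, adjusted p = 0.0161).

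The direction at 120 h depended on the scale. With total gene counts as library size, a scale chosen after the data were seen, 74 members were higher at 120 h than at 2 h in the WT label (69.01% of all genes were) and 58 in the PkmΔDRE label (68.8% of all genes), with medians of 0.72 and 0.57. That scale raised the median of all genes by 1.25 and 1.34, and on both scales the members' median lay below that of all genes at 120 h. At 24 h it gave 76 members higher in each label (57.1% of all genes in WT and 45.9% in PkmΔDRE), with medians of 1.27 and 1.29 against 0.95 and 1.08 over all genes. Rps25, Rpl7a and Rpl22l1 in WT and Rpl36 in PkmΔDRE turned to values of 0.20, 0.21, 0.21 and 0.03, none called, and Rps27 and Rpl22l1 in PkmΔDRE stood at -0.08 and -0.13. Summed hepatocyte markers fell over the same interval from 170000-230868 CPM at 2 h to 8970-11781 CPM at 120 h in PkmΔDRE vehicle libraries, and summed cholangiocyte markers (5 of 5 detected) went from 82.4-136.7 CPM to 702-1227 CPM. Their part in the members' change was not tested. With the share of pairs outside genes as a covariate no member was called at 120 h, and the medians were 0.22 and 0.11. That share was 4.62% to 5.51% at 2 h and 8.57% to 10.66% at 120 h in WT. In PkmΔDRE it was 3.95% to 5.29% and 7.83% to 11.79%. Without overlap between the times, this setting cannot separate that share from culture time. Trends on GC content and on the length of each gene's longest annotated transcript were then removed from each library. With them removed 28 of 79 members were lower and 10 higher in WT, where 34.4% of all genes were lower and 29.6% higher. In PkmΔDRE 25 of 78 were lower and 3 higher, against 33.1% and 29.3% of all genes.

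Other short genes also lay low at 120 h, but not high at 24 h. The members' median transcript length was 1106 bases, against 3386 for the other genes tested throughout, and the median GC content was 50.9% against 49.8%. At 120 h versus 2 h in the WT label, other genes with transcripts of up to 1000 bases had a median log2 fold change of -0.46, those of 1000 to 4000 bases -0.07 and those above 4000 bases 0.80. In the PkmΔDRE label the 3 medians were -0.71, -0.13 and 0.92. At 24 h the short genes' median was -0.36 in WT and -0.09 in PkmΔDRE, below 0 where the members' was above. With the trends removed 60 members rose at 24 h in WT (27.5% of all genes) and 46 in PkmΔDRE (19.6% of all genes), with medians of 0.67 and 0.80 against 0.05 and 0.13 over all genes.

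The comparison of TCDD with time-matched vehicle asked whether an AHR agonist changed the module. Members were called in 3 of 18 comparisons, all in libraries labelled WT. At 8 h, 72 of 78 members tested fell and none rose (42 of the large and 30 of the small subunit), while 20.2% of all genes tested fell. The members' median log2 fold change was -0.74 (-0.74 for the large and -0.75 for the small subunit), and that of all genes was 0.00. In 63 members every TCDD library was below every vehicle library, as it was for 18.2% of all genes. The member share of gene counts was 1.89%, 1.81%, 1.79% and 1.93% with TCDD against 2.72%, 2.65%, 2.92% and 2.78% with vehicle.

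**Figure D3:**
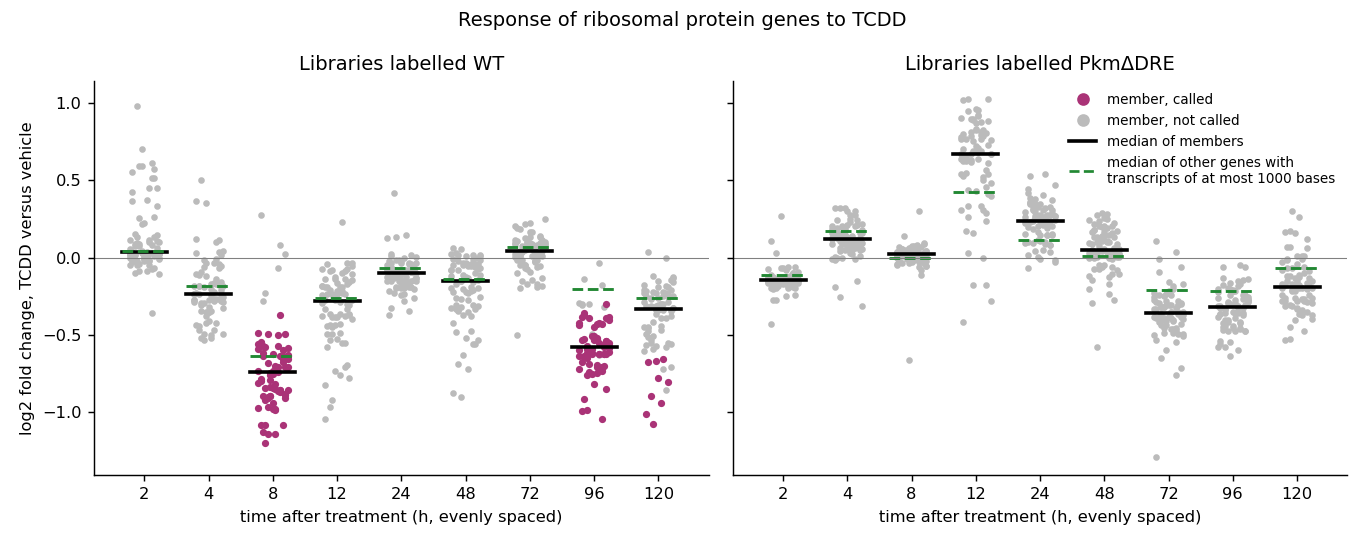
Log2 fold change of each member, TCDD versus vehicle (y axis), by time (x axis, evenly spaced) and label, with members called in purple, others in grey, the members' median as a black line and the median of other genes with transcripts of up to 1000 bases as a green dashed line. In the WT label the members' median is -0.74 at 8 h and -0.58 at 96 h, and the dashed line stands at -0.64 and -0.20.

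The largest falls at 8 h were those of Rps28, Rpl38 and Rps29. Rps28, which lies near the mRNA exit of the 40S subunit, stood at 120.9, 98.6, 135.1 and 98.7 CPM with vehicle and at 89.5, 34.9, 31.4 and 45.8 CPM with TCDD (-1.20, SE 0.28, adjusted p = 0.00497). Library 45 was the highest of the TCDD libraries, and the groups did not overlap. Rpl38 (-1.14, adjusted p = 0.0077), known for its part in translation of Hox mRNAs, and Rps29 (-1.14, adjusted p = 0.0123) followed, and for both library 45 reached into the vehicle range. With the GC and length trends removed Rps28 kept its call (-1.06, adjusted p = 0.016), and Rpl38 and Rps29 did not (-0.09 and -0.49). The length used is that of the longest annotated transcript, which may not be the expressed mRNA. Members can therefore differ under this setting through annotation, and this was not tested.

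The stalk proteins fell together at 8 h. Rplp0 stood at 1488, 1518, 1420 and 1351 CPM with vehicle and at 1039, 852, 771 and 865 CPM with TCDD, without overlap (-0.74, SE 0.14, adjusted p = 0.00188). Rplp1 and Rplp2, the acidic dimer bound to it, both had a log2 fold change of -0.98 (adjusted p = 0.00209 and 0.00105). Removal of the trends brought Rplp0 to -0.15 and Rplp1 to 0.08.

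Most other members with named roles were also lower. Rps19, mutated in Diamond-Blackfan anaemia, stood at 279, 271, 281 and 273 CPM with vehicle and at 185, 138.3, 131.6 and 151.5 CPM with TCDD (-0.90, SE 0.13, adjusted p = 0.00109), and kept -0.84 with the trends removed. Rps6, the substrate of S6 kinase, fell by 0.57 (adjusted p = 0.0036) but stood at 0.30 with the trends removed. Rpsa, the 40S protein also known as the laminin receptor, stood at 1480, 1536, 1334 and 1300 CPM and at 1011, 926, 706 and 896 CPM (-0.71, adjusted p = 0.00292). Rps27a, which is made as a fusion with ubiquitin, had -0.55 (adjusted p = 0.00497), and Rpl22 -0.56 (adjusted p = 0.0139).

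Rpl5 and Rpl11 form with 5S RNA the particle that inhibits Mdm2, and the difference between them was not tested. Rpl11 stood at 460, 411, 432 and 354 CPM with vehicle and at 310, 208, 177 and 216 CPM with TCDD (-0.90, SE 0.17, adjusted p = 0.00216). Rpl5 had a log2 fold change of 0.02 (SE 0.15, adjusted p = 0.914), and its groups overlapped. Rpl4, a member chosen after its values were seen, stood at 511, 515, 599 and 562 CPM with vehicle and at 548, 504, 663 and 648 CPM with TCDD (0.08, adjusted p = 0.639). The other members not called at 8 h were Rpl7l1 (-0.28, adjusted p = 0.0765), Rpl23a (-0.23), Rps10 (-0.07) and Rpl22l1 (0.28), also named after their values were seen. With the trends removed Rpl5 stood at -0.56 (adjusted p = 0.0207), so its lack of a call depended on the scaling, which here follows annotated transcript lengths. The value of Rpl11 under that setting is not given here. Of 89 results of named genes over several comparisons, 32 lost their call and 7 changed sign with the trends removed.

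Several library measures moved with the 8 h result. Read pairs outside genes made up 8.36% to 21.9% of uniquely mapped pairs with TCDD and 4.89% to 5.99% with vehicle, and library 45 held the highest share, with 23.6% of its reads unmapped. Summed hepatocyte markers (12 of 12 detected) ranged from 71736 to 79402 CPM with TCDD and from 80718 to 97817 CPM with vehicle, and macrophage markers (8 of 8) from 65.9 to 125.1 CPM and from 169 to 212 CPM. Of the 12 hepatocyte markers 5 fell and 2 rose, where 20.2% of all genes fell and 25.3% rose. The 72 calls ranged from 69 to 72 when any 1 library was left out. Other genes with transcripts of up to 1000 bases had a median of -0.64, those of 1000 to 4000 bases -0.24 and those above 4000 bases 0.65. With GC and length trends removed 34 members fell and 1 rose, against 9.47% and 7.46% of all genes, and the medians were -0.29 over members and 0.01 over all genes.

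**Figure D4:**
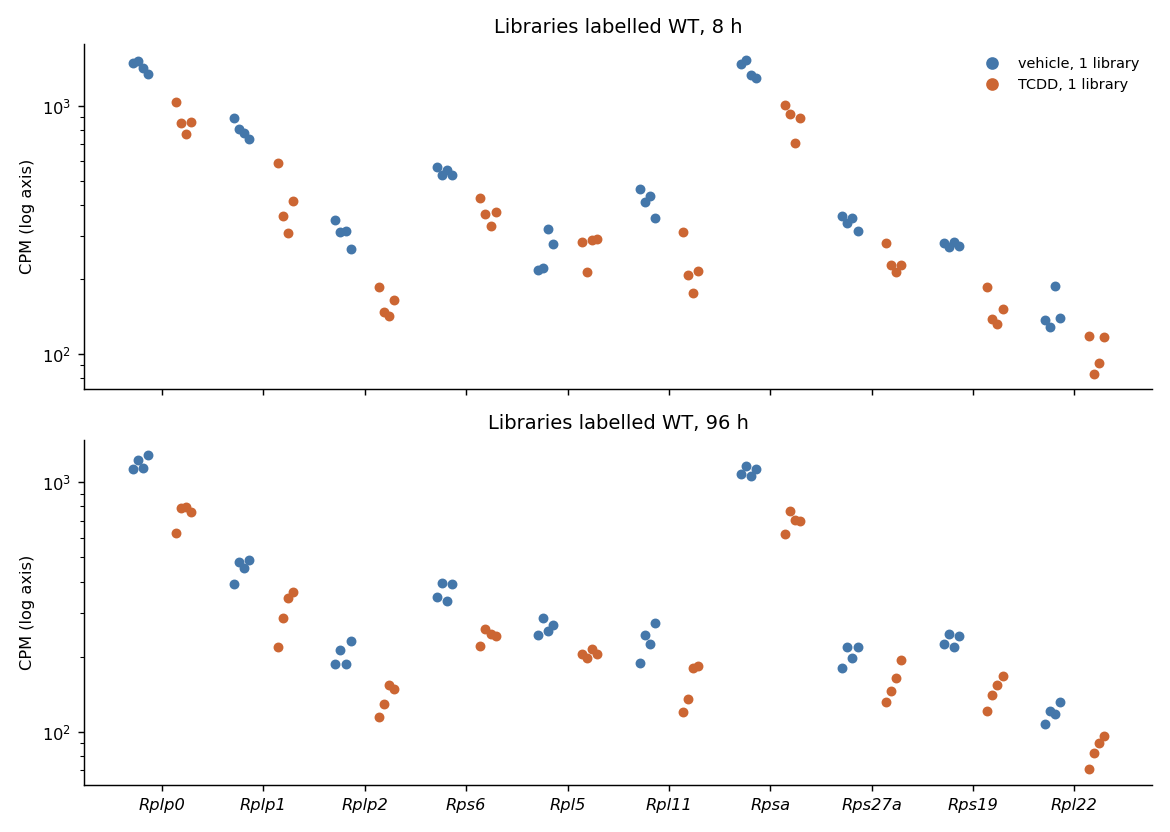
CPM on a log axis in each library labelled WT for 10 members with named roles, with vehicle in blue and TCDD in orange, at 8 h (top) and 96 h (bottom). Every TCDD library lies below every vehicle library for all but Rpl5 at 8 h, and for all but Rps27a at 96 h.

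At 96 h, 68 of 78 members tested fell in the WT label and none rose (41 large, 27 small), against 16.1% of all genes that fell. In 67 members the groups did not overlap, against 20.3% of all genes. The median log2 fold change was -0.58 over members and 0.01 over all genes. The share of gene counts was 1.69%, 1.85%, 2.04% and 2.10% with TCDD against 2.45%, 2.99%, 2.60% and 2.93% with vehicle. Leaving out any 1 library gave 64 to 73 calls. Leaving out both library 31, with Cyp1a1 in a vehicle library, and library 65, a choice made after the data were seen, gave 64.

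Rpl35 stood at 13.2, 20.8, 15.8 and 18.9 CPM and at 9.63, 8.80, 7.51 and 7.15 CPM (-0.99, SE 0.17, adjusted p = 0.0018). Rpl23a stood at 9.75, 13.4, 10.6 and 11.7 CPM and at 4.35, 6.49, 5.86 and 5.35 CPM (-0.98, SE 0.17, adjusted p = 0.00181). Neither pair of groups overlapped, and both genes have few counts and exons shared with other genes.

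Among the role members Rplp0 stood at 1127, 1232, 1136 and 1283 CPM with vehicle and at 628, 788, 797 and 762 CPM with TCDD (-0.63, SE 0.09, adjusted p = 0.000793). Rps19, Rpsa and Rps6 had -0.62, -0.61 and -0.55, and Rpl11, Rplp1 and Rplp2 had -0.53, -0.52 and -0.52, all called. Rpl22 fell by 0.44 (adjusted p = 0.00707). Rpl5 was called here (-0.30, SE 0.08, adjusted p = 0.0126), with 245, 285, 254 and 267 CPM against 205, 198, 215 and 204 CPM. Rps27a was not (-0.30, adjusted p = 0.0615). Beside it Rps21, Rpl13a, Rps24, Rpl36a, Rpl22l1, Rpl34, Rpl4, Rpl7l1 and Rps10 missed the threshold.

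The trend on length was weaker at 96 h. Other genes had medians of -0.20, -0.08 and 0.21 from short to long transcripts, and with the trends removed 50 members fell (9.59% of all genes) and the median was -0.44, against 0.01 over all genes. Pairs outside genes were at 9.08% to 11.8% with TCDD and 6.21% to 9.40% with vehicle. Endothelial markers (8 of 8 detected) summed to 73.7 to 94.2 CPM against 106.6 to 133.3 CPM, and macrophage markers (8 of 8) to 49.7 to 64.3 CPM against 64.8 to 90.99 CPM, both without overlap. Cholangiocyte markers (5 of 5) summed to 372 to 781 CPM against 609 to 1331 CPM. Their part in the result was not tested. In 1 fit over all libraries of the label, which pools the spread over 9 times, 4 members were called.

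At 120 h, 9 of 78 members fell in the WT label, against 0.559% of all genes tested that fell. They were Rps29, Rpl35, Rpl38, Rps28, Rpl41, Rpl37a, Rps16, Rpl37 and Rps21. Rps29 stood at 74.6, 108.7, 103.9 and 81.6 CPM with vehicle and at 54.6, 42.9, 48.7 and 28.9 CPM with TCDD (-1.08, SE 0.20, adjusted p = 0.0307). Rpl35 (-1.01, SE 0.21, adjusted p = 0.0473) and Rpl38 (-0.94, SE 0.18, adjusted p = 0.0335) also had groups that did not overlap. The members' median was -0.33 and the short other genes' -0.26. The count rested on single libraries, since it was 0 without any 1 of libraries 36, 69, 70 and 72, 1 without library 34 or 35, 5 without library 33 and 26 without library 71. Leaving out library 71 also took the number of all genes called lower from 80 to 362. In 1 fit over all libraries of the label the count of members was also 0. Cholangiocyte markers (5 of 5 detected) summed to 317 to 532 CPM with TCDD against 581 to 1069 CPM with vehicle, and endothelial markers (8 of 8) to 118.2 to 132.4 CPM against 62.7 to 110.8 CPM, both without overlap. Their part in the result was not tested.

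**Figure D5:**
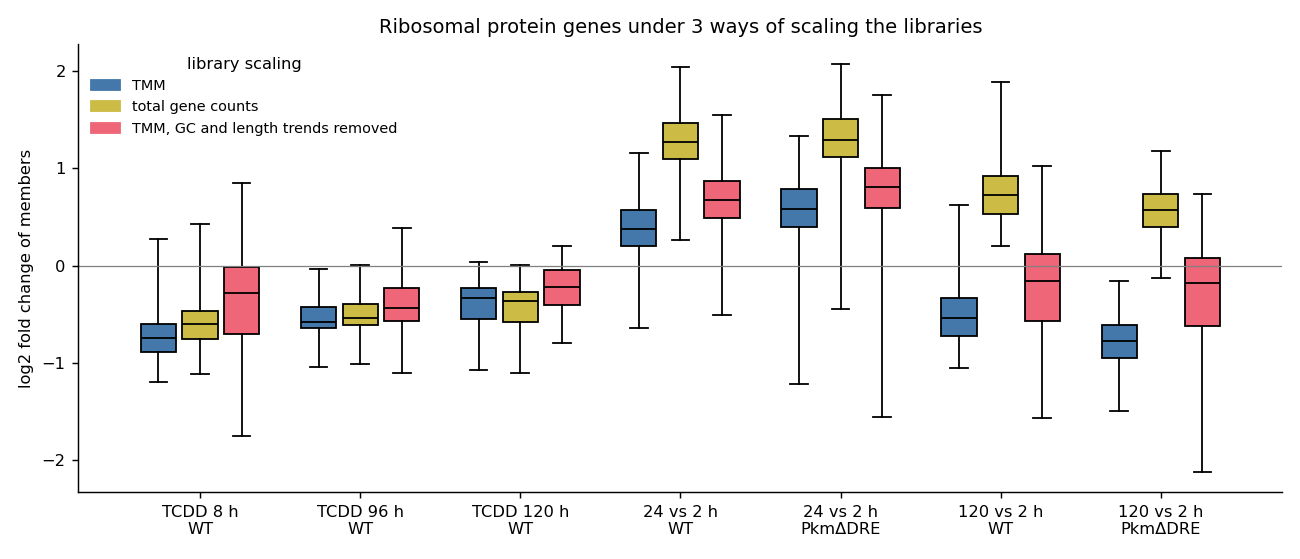
Log2 fold changes of the 78 members tested throughout (boxes from the first to the third quartile with the median, whiskers to the extremes) in 7 comparisons under TMM scaling, total gene counts and TMM with GC and length trends removed. The TCDD medians lie below 0 under all 3, with values of -0.74, -0.60 and -0.29 at 8 h in the WT label, and the medians of 120 versus 2 h change side between TMM and total counts.

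In the other 15 TCDD comparisons no member was called by edgeR or by DESeq2, while between 0 and 154 of all genes were called by edgeR. The number of members with an unadjusted p under 0.05 was highest at 12 h in the PkmΔDRE label, with 46 of 79 (9.53% of all genes), then in the WT label 18 of 79 at 4 h (17.1% of all genes) and 18 of 78 at 12 h (2.63% of all genes). The PkmΔDRE median at 12 h was 0.67, higher with TCDD, with a lowest adjusted p of 0.508. Rplp0 stood at 1162, 790, 1163 and 1028 CPM with vehicle and at 2603, 865, 2554 and 1557 CPM with TCDD there (0.83, SE 0.33). The groups overlapped, since the lowest TCDD library lay within the vehicle range. Rps19 (0.87, SE 0.33) also had groups that overlapped, and Rpl5 stood at -0.28 (SE 0.16). Other short genes had a median of 0.43.

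At 8 h in the PkmΔDRE label the members' median was 0.02, and 0.60 with the share of pairs outside genes as a covariate, with no member called in either. Rplp0 stood at 1088, 774, 1130 and 1864 CPM with vehicle and at 1692, 910, 1067 and 1128 CPM with TCDD (-0.03, SE 0.25). Rps28 stood at 85.6, 39.1, 68.3 and 96.3 CPM and at 111.1, 58.97, 72.5 and 52.2 CPM (0.01, SE 0.28). The vehicle libraries of this label varied far more at 8 h than those labelled WT, whose Rplp0 spanned 1351 to 1518. At 96 h in this label all 78 members were below 0, with a median of -0.32 and a lowest adjusted p of 0.647. Without the 96 h library that went against its time label the median was -0.19 and no member was called. At 4 h the median was 0.12, and 0.08 without library 80, with no member called in either. At 72 h the median was -0.36 and no member was called, but 32 were without library 97, the vehicle library with the lowest share (2.10%). Leaving out library 97 also took the number of all genes called lower from 44 to 836.

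The size of the TCDD response was compared across labels by an interaction term at 2, 8 and 96 h. No member was called at any of the 3 times by edgeR or DESeq2, but 6 were at 8 h without the filter on low counts. At 8 h, 45 of 79 members had an unadjusted p under 0.05, as 15.9% of all genes had. The median difference in log2 fold change (PkmΔDRE minus WT) was 0.65 over members and -0.12 over all genes. Rps19 differed by 0.85 (SE 0.30, adjusted p = 0.292) and Rplp1 by 0.88 (SE 0.35, adjusted p = 0.294). At 96 h 2 members and at 2 h 5 members had an unadjusted p under 0.05 (13.1% and 0.8288% of all genes), with medians of 0.22 and -0.24. Without the vehicle library that went against its time label the 96 h values became 15 members, 18.2% of all genes and a median of 0.33, with no member called. With the filter no difference between the labels passed the adjusted threshold, which does not show that they responded alike.

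A list of 5 held ribosomal proteins that the rule missed, among them Fau, Rps3a1, Rack1 and Rps27rt. At 8 h in the WT label 2 of 5 fell, Fau (-0.74, SE 0.16, adjusted p = 0.00369), made as a fusion of Rps30 with a ubiquitin-like protein, and Rack1 (-0.67, SE 0.14, adjusted p = 0.00294), the scaffold at the 40S head. Rack1 stood at 920, 968, 801 and 809 CPM with vehicle and at 647, 574, 480 and 546 CPM with TCDD. With the trends removed Fau stood at 0.31 and Rack1 at -0.99. At 96 h 3 of 5 fell, Rack1 (-0.71), Fau (-0.52) and Rps3a1 (-0.29). Of all genes 20.2% fell at 8 h and 16.1% at 96 h. In culture Rack1 (0.64) and Rps3a1 (0.35) rose by 24 h in the WT label, and Fau, Rps3a1, Rack1 and Rps27rt fell by 120 h.

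Of 19 other translation genes with TOP mRNAs, 9 fell and 5 rose at 8 h in the WT label, with a median of -0.27, where 20.2% of all genes fell and 25.3% rose. Among those that fell were the elongation factors Eef1b2 (-0.64, adjusted p = 0.00214), Eef1d (-0.63, adjusted p = 0.00534) and, named after its values were seen, Eef2 (-0.59, adjusted p = 0.00945). Those that rose included the histone chaperones Nap1l1 (1.36, adjusted p = 0.00436) and Npm1 (1.26, adjusted p = 0.00394) and the poly(A)-binding protein Pabpc1 (1.05, adjusted p = 0.0018). Pabpc1 stood at 280, 273, 335 and 376 CPM with vehicle and at 472, 622, 939 and 652 CPM with TCDD, without overlap. With the trends removed Nap1l1 stood at 0.27, not called, and Pabpc1 at 0.47, called. At 96 h 9 fell and 2 rose, led by Eif3k (-0.69), Eef1g (-0.61) and Eif4a2 (0.60), where 16.1% of all genes fell and 16.7% rose.

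Ribosome biogenesis genes went both ways at 8 h. Of 38, 16 rose and 12 fell, with a median of 0.12, where 25.3% of all genes rose and 20.2% fell. Nop58, the core of box C/D particles, stood at 19.2, 16.03, 28.5 and 29.4 CPM with vehicle and at 37.6, 89.6, 119.6 and 69.3 CPM with TCDD (1.73, SE 0.31, adjusted p = 0.00161). Dkc1, the pseudouridine synthase, rose from 10.05, 7.80, 9.86 and 8.41 CPM to 20.96, 25.5, 42.03 and 25.8 CPM (1.63, SE 0.24, adjusted p = 0.00106), and the GTPase Gnl2 had 1.59 (adjusted p = 0.00141). With the trends removed the 3 stood at 0.22, 0.95 and 1.47. At 96 h 4 rose and 13 fell, with Ncl at 0.61, Brix1 at 0.59 and Rrp9 at -0.60, where 16.7% of all genes rose and 16.1% fell.

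The other lists were mixed at 8 h in the WT label, where 25.3% of all genes rose and 20.2% fell. Of 17 genes of mTORC1 signalling and TOP control 6 rose and 4 fell, among them Larp4 (1.37), Rps6kb1 (1.18), the gene of S6 kinase 1, and the arginine sensor Castor1 (-1.22), but with the trends removed Larp4 stood at -0.09 and Rps6kb1 at -0.11. Of 10 ribosome quality control genes tested 4 rose and none fell, led by the ligase Ltn1 (1.65), the recycling factor Abce1 (1.53) and Nemf (1.26), and with the trends removed these 3 stood at 0.39, 0.46 and 0.20, none called. Of 8 host genes of small nucleolar RNAs, themselves TOP transcripts, Snhg8 alone was called (-1.11, SE 0.33, adjusted p = 0.0158). At 96 h these lists had 3 higher and 3 lower, 2 and 1, and 0 and 2, with Castor1 (-0.89), Larp4 (0.68, and -0.01 with the trends removed), Rps6kb1 (0.65), Pelo (-1.11), Nemf (0.84), Abce1 (0.65), Snhg8 (-0.78) and Snhg6 (-0.37) named by the largest change. Of all genes 16.7% rose and 16.1% fell at 96 h. At 120 h no gene of these lists or of the translation and biogenesis lists was called.

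Over culture time in vehicle most of the biogenesis list fell by 120 h on the TMM scale. From 2 to 120 h, 24 of 38 fell and 5 rose in the WT label, with a median of -0.82, and 21 fell and 1 rose in the PkmΔDRE label. Of all genes 29.9% fell in the WT label and 28.6% in the PkmΔDRE label. With total gene counts as library size the direction turned, with 20 higher and 3 lower in WT (median 0.43) and 14 higher and 3 lower in PkmΔDRE (median 0.50). On that scale 68.8% of all genes were higher in PkmΔDRE, and most genes were higher in WT too, so the turn was not particular to this list. Myc, which drives transcription of ribosomal genes, was already down at 24 h in the WT label, from 381, 338, 491 and 516 CPM to 99.4, 93.2, 132.96 and 126.4 CPM (-2.17, SE 0.18, adjusted p = 1.7e-06). At 24 h 5 of the 38 rose and 9 fell, with Ncl at 1.75 and Dkc1 at 1.18, while the TOP list had 9 higher and 2 lower, with Nap1l1 at 2.25, Npm1 at 1.89 and Eif4a2 at -1.99. In that comparison 25.7% of all genes rose, and 3297 of 12514 fell. In the PkmΔDRE label at 24 h 3 rose and 2 fell of the biogenesis list, and 6 and 1 of the TOP list, where 17.3% of all genes rose and 1664 of 12355 fell.

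Within paralogue pairs both partners fell at 8 h in 1 case. At 8 h in the WT label Rps27 stood at 233, 230, 248 and 221 CPM with vehicle and at 192, 113.7, 105.7 and 131.96 CPM with TCDD (-0.81, SE 0.18, adjusted p = 0.00348). Rps27l stood at 163, 177, 178 and 158 CPM and at 147.5, 102.4, 97.3 and 117.1 CPM (-0.57, SE 0.15, adjusted p = 0.00813). Both fell. Rpl7 fell (-0.49, adjusted p = 0.00833) while Rpl7l1 was not called, and Rpl22 fell while Rpl22l1 was not called. The differences within pairs were not tested.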

How the data were processed

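The deposited files held gene counts: the authors trimmed reads with Trimmomatic 0.39, checked them with FastQC 0.11.3, aligned 150 bp pairs to GRCm39 with STAR 2.7 and deposited its raw count of uniquely mapped pairs per gene, of which the unstranded column was used, so antisense genes cannot be told apart. Versions follow the submitters' processing notes. Symbols, biotypes, lengths and GC content came from GENCODE M21 (GRCm38), promoters from RefSeq GRCm38.p6. Transcript length and GC content were those of each gene's longest annotated transcript. Rows that name no gene stayed out of library sizes (2.88% to 21.9% of uniquely mapped pairs outside genes). Counts were fitted per comparison with edgeR 4.0.16 (R 4.3.3): TMM, filterByExpr with a minimum count of 10 and a total of 15, robust quasi-likelihood test, Benjamini-Hochberg over all genes tested, and a call at adjusted p under 0.05. CPM values are TMM-scaled over all libraries, except levels per kilobase, which divide by total gene counts. Intervals of single libraries cover counting error only and are not printed. The script was tested on simulated counts. Named genes were up to 3 called members with the largest rise and fall per comparison, members with set roles, paralogue pairs, the extremes of level and likeness, and up to 3 called genes of each list. The members and lists were chosen with earlier results of these data known. Some genes that the rule would name are not reported here. Alternatives were DESeq2 1.42.0, other scalings, filters, covariates and leaving out each library.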

Additional observations from a re-analysis of the deposited data

Results flagged for a closer look

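The member share of gene counts was examined in all 36 groups of 4 libraries for a highest or lowest library far from the other 3, a rule that chance meets in about 5% of groups, and 4 groups met it. In WT vehicle at 2 h library 3 held 1.41%, against 1.62% to 1.65% in the others. In WT vehicle at 4 h library 7 held 1.75%, against 1.96% to 1.98%. In PkmΔDRE vehicle at 4 h library 80 held 2.85%, against 1.99% to 2.11%, and its hepatocyte, blood (mainly Alas2) and cholangiocyte markers also went against its time label. In PkmΔDRE TCDD at 72 h the third of the 4 libraries in accession order held 2.07%, against 2.66% to 2.76%.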

How the results depend on the processing

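No paired analysis was possible because the labels give no replicate number. The members' calls at 8 h in WT (69 to 72), 96 h in WT (64 to 73) and 120 versus 2 h (41 to 56 in WT, 45 to 70 in PkmΔDRE) stayed within 1.5 times when 1 library was left out. Others ranged from 0 to 26 (WT 120 h), 0 to 32 (PkmΔDRE 72 h), 19 to 41 (WT 24 versus 2 h) and 0 to 9 (PkmΔDRE 24 versus 2 h). The 26 and 32 came with 362 and 836 of all genes called lower, against 80 and 44 with all libraries. For the results below the cause was not tested. The counts of calls below are of members alone. Shares of all genes are given above only for GC and length trends removed and for total gene counts. Counts under the other settings therefore do not set the members apart from other genes.

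With GC and length trends removed (added after seeing the data) WT 8 h gave 35 calls and a median of -0.29, WT 24 versus 2 h 60 and 0.67, WT 120 versus 2 h -0.16, PkmΔDRE 24 versus 2 h 46, and PkmΔDRE 120 versus 2 h 28 and -0.18. At 8 h in WT Fau stood at 0.31, Larp4 at -0.089, Rps6kb1 at -0.11, Rplp1 at 0.082, Rps6 at 0.30 and Rpl5 at -0.56, and at 96 h Larp4 at -0.0062. With total gene counts (also added) WT 24 versus 2 h gave 76 and 1.27, WT 120 versus 2 h 74 and 0.72, PkmΔDRE 24 versus 2 h 76 and 1.29, PkmΔDRE 120 versus 2 h 58 and 0.57, and PkmΔDRE 4 h -0.10. Gas5 stood at 0.29 (WT 24 versus 2 h), Rps25 at 0.20, Rpl7a at 0.21 and Rpl22l1 at 0.21 (WT 120 versus 2 h), and Rpl36 at 0.035 (PkmΔDRE 120 versus 2 h). With the share outside genes as a covariate the values were -1.01 (median, WT 8 h), 0.60 (median, PkmΔDRE 8 h), 44 (WT 120 h), 1 (PkmΔDRE 72 h), 52 and 37 (24 versus 2 h, WT and PkmΔDRE), and 0 calls with medians of 0.22 and 0.11 (120 versus 2 h). In WT 8 h and at 120 versus 2 h that share did not overlap between the compared groups, so this setting cannot separate it from treatment or time there. A fold change of at least 1.5 left 37 (WT 96 h), 16 (WT 24 versus 2 h) and 34 (WT 120 versus 2 h). Without a filter there were 21 (WT 120 h), 1 (PkmΔDRE 72 h), 50 and 12 (24 versus 2 h) and 6 (interaction at 8 h). In 1 fit per label there were 4 (WT 96 h), 0 (WT 120 h) and 1 (PkmΔDRE 72 h). DESeq2 gave 24 (WT 120 h) and 4 (PkmΔDRE 24 versus 2 h), and RLE scaling 1 in the latter. The value of Rpl5, WT 8 h, was -0.000771 (RLE), -0.000859 (DESeq2), -0.047 (covariate) and -0.086 (1 fit), and between -0.0499 and 0.120 with 1 library left out.

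On the TMM scale the mean share in vehicle became 2.40%, 2.58%, 3.14%, 2.49%, 2.26% and 1.88% in WT (2, 4, 8, 72, 96 and 120 h) and 2.71%, 2.37% and 1.83% in PkmΔDRE (2, 12 and 120 h). With TCDD it became 2.48%, 2.18%, 1.95%, 1.48% and 1.51% in WT (2, 4, 8, 96 and 120 h) and 2.34%, 2.82%, 2.16%, 2.06% and 1.59% in PkmΔDRE (2, 4, 72, 96 and 120 h).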

Other observations

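Other gene groups fixed for the comparison of 120 with 2 h in vehicle were mixed. Of all genes 29.9% fell there in the WT label and 28.6% in the PkmΔDRE label. In the WT label 3 of 19 translation genes with TOP mRNAs rose and 9 fell (median -0.36), led by Nap1l1 (1.81), Eif4a2 (-1.52) and Eef2 (-1.30). Of 8 small nucleolar RNA host genes 2 fell, Snhg8 (-2.07) and Snhg12 (-0.94). Among PkmΔDRE libraries 2 of the 19 rose and 10 fell (median -0.49), with Nap1l1 at 1.82 and Eef2 at -1.17, and 4 of the 8 host genes fell, Snhg8 by 2.68. Among ribosomal proteins outside the naming rule, Rps27rt stood at -1.497 and Fau at -1.03 in the WT label. With total gene counts as library size 16 of the 19 translation genes rose and none fell in each label (medians 0.89 and 0.86). On that scale 68.8% of all genes were higher in PkmΔDRE, and most genes were higher in WT too, so the rise was not particular to this list. Genes of mTORC1 signalling went both ways, with 4 of 17 higher and 4 lower in WT.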
